A study of Homo sapiens with 4 samples.

Results

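The S100 proteins are a family of small calcium-binding proteins, and 10 of their genes were measured here among 11597 listed genes. The 10 were chosen by gene symbol, as every listed gene whose symbol is S100 followed by 1 letter or by A and a number, and the family was singled out with its fold changes in this comparison already known. The fold changes, errors and adjusted p-values of the members are therefore given as a description. The cells were MOLM13, an established human acute myeloid leukaemia line, and poly(A) RNA was collected 3 days after lentiviral transduction. One group of 2 libraries received a BTG2 cDNA (genotype label BTG2 OE) and the other group of 2 an empty vector (genotype label WT). Both groups carried the same EF1α vector with puromycin resistance and ZsGreen, and the labels mention neither drug selection nor sorting. BTG2 is an adaptor that brings the CCR4-NOT deadenylase to messenger RNA, and the stated question was its role in mRNA stability.

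An S100 protein folds into a pair of EF-hands, the helix-loop-helix motif that holds calcium, and most members work as dimers. Calcium opens a surface with which the dimer grips a target inside the cell, such as an annexin or a myosin. Some members also leave the cell, bind metals needed by microbes and act as danger signals on receptors such as TLR4 and RAGE. In the myeloid lineage S100A8 and S100A9 are known as calprotectin, a major cytosolic protein of neutrophils and monocytes.

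The data are 1 table of the authors' own comparison, with a mean normalized count per gene over all libraries, a log2 fold change of BTG2 over empty vector, its standard error (SE) and an adjusted p. No value of a single library was analysed here, and the depth of each library, the spread between libraries and the number of libraries that share a direction are unknown. Called means an adjusted p under 0.05 in the authors' deposited table, and 95% intervals are the fold change plus or minus 1.96 SE. BTG2 itself, in the authors' deposited table, had a log2 fold change of 5.01 (SE 0.09), which does not separate the cDNA from the endogenous gene. Of 12 markers of an acute myeloid leukaemia line 11 were listed, CD33, FLT3 and SPI1 among them. Erythroid, B-cell and fibroblast markers had 0 listed genes of 8, 4 and 4. T-cell markers had 1 of 6 (TRAC) and epithelial markers 2 of 5 (KRT8 and KRT18), with 0 called.

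Of the 10 members 6 were lower with BTG2 and 0 were higher. The median log2 fold change of the 10 was -0.48, beside 0.00 over all listed genes, and -0.23 for the 7 members with a mean count of at least the median. Among all listed genes 8.11% were called, 4.47% lower and 3.64% higher, a balance that turned to 433 lower and 500 higher genes when fold changes were recentred on the median of abundant genes. Calls were more frequent among the 5799 genes with a mean count of at least the median, 7.60% lower and 6.02% higher. Since the members were chosen with these values known, nothing is read from the distance between the 6 of 10 and that background. The called genes were S100P, S100A1, S100A8, S100A9, S100A4 and S100A11. With a minimum absolute log2 fold change of 1 the calls were 2, S100P and S100A1, and S100P alone was called when changes were tested for exceeding 0.5. S100A10 and S100A3 had negative fold changes without a call, and S100A6 and S100A13 stood close to 0. RNA was measured in bulk, so fewer cells of a type cannot be told apart from less RNA per cell.

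Release 29 of the GENCODE annotation on GRCh38, the build called hg38 in the submitters' processing notes, holds 19 coding genes that follow the same naming rule. All 10 members matched it by Ensembl identifier. The other 9, which are S100A2, S100A5, S100A7, S100A12, S100A14, S100A16, S100B, S100G and S100Z, had no row, so the third calgranulin, S100A12, was not analysed here. Of the 10 members 9 lie on chromosome 1 in band 1q21, and S100P lies on chromosome 4.

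The 5 members S100P, S100A8, S100A9, S100A4 and S100A13 had the letters TATAAA, the core of a TATA box, at the usual distance before a transcription start. Of these 5 members 4 were called, and of the 5 without the letters 2, S100A1 and S100A11, with 8.11% called among all genes. Since the members' fold changes were known beforehand, nothing is read from that split. The windows shown cover 30 bases, from base -45 to base -16 relative to the start in RefSeq (GRCh38.p14), on the gene's own strand and 5′ to 3′, with TATAAA in capitals. They are shown because the feature played no part in the naming rule.
S100P, chr4:6693833-6693862, plus strand: tcaatatgaggctgcctTATAAAgcaccaa
S100A8, chr1:153391089-153391118, minus strand: ggccaagcctaaccgcTATAAAaaggagct
S100A9, chr1:153357809-153357838, plus strand: ccagtcaggagctgccTATAAAtgccgagc
S100A4, chr1:153545822-153545851, minus strand: gggcctggctggggTATAAAtaggtcagac
S100A13, chr1:153627521-153627550, minus strand: ctccttccccgctgctTATAAAcctcagcc

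The first T lies at base -28 in S100P, at -31 in S100A4 and at -29 in the other 3 genes. Of 35116 RefSeq promoter windows of all genes, 836 (2.38%) hold TATAAA on the sense strand in the same 30 bases. The 10 members have 14 such windows, since S100A8 and S100A13 have 3 annotated starts each, of which 1 carries the letters. S100A6 lacks them and has a near match at the same place.
S100A6, chr1:153536007-153536036, minus strand: cggggcaccgaccgctataaggccagtcgg

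S100A9 is the TATA-bearing member whose upstream 250 bases overlap 0 bases of an annotated exon, so its full upstream stretch is given as the example, chr1:153357604-153357853, plus strand, ending 1 base before the start.
S100A9: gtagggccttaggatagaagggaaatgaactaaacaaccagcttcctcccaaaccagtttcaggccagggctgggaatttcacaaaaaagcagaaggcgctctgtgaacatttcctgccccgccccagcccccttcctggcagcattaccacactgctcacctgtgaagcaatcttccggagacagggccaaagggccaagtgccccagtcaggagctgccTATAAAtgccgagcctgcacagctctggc
The same 250 bases were searched on both strands for TTNNGNAA, a loose form of the element bound by C/EBP factors. At least 1 match lay in 1 window or more of 6 of the 10 members, S100A8, S100A9, S100P, S100A6, S100A11 and S100A13, and 33.2% of all promoter windows hold one. The first is a count of genes, some with several windows, and the second a share of windows, so they are not like measures. Such letters are a description of the window and not evidence of binding.

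To show levels in each group, a mean per group was derived from the deposited mean and fold change, taking the mean as an average over 2 groups of equal size and the fold change as the ratio of their means. These implied levels are normalized counts without length correction, carry no error of their own and serve to compare a gene with itself.

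**Figure D1:**
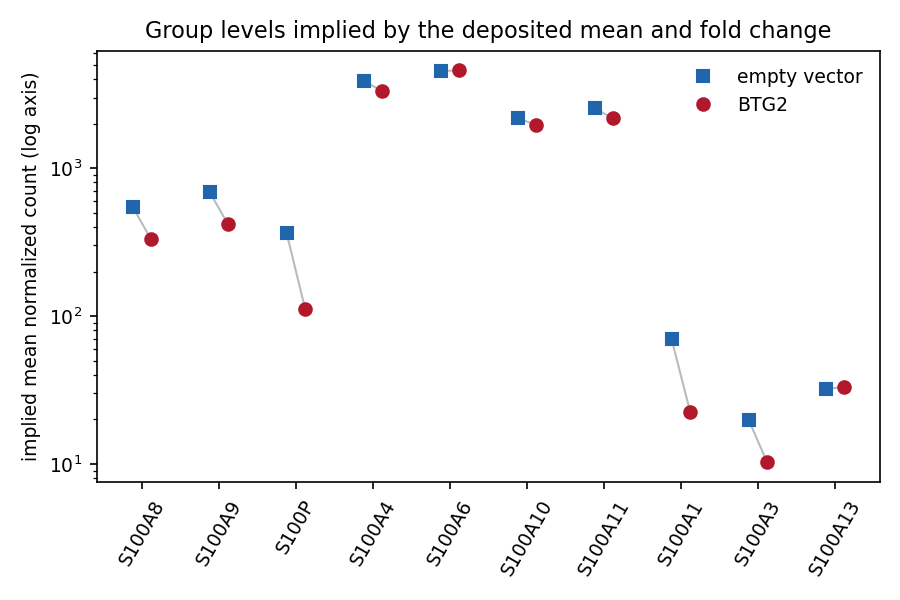
Implied mean normalized count (log axis) of each S100 gene in empty-vector libraries (squares) and BTG2 libraries (circles), derived from the deposited mean and fold change, with no length correction and no error bars. S100P falls from 365 to 112, whereas S100A6 stands at 4537 and 4587.

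The secreted calgranulins S100A8 and S100A9, the subunits of calprotectin, were lower by nearly the same amount. S100A8 (ENSG00000143546.10, chr1:153390032-153391188, minus strand) had a mean normalized count of 439 and a log2 fold change of -0.73 (SE 0.11 and adjusted p = 2.68e-09 in the authors' deposited table). Its implied level went from 549 in empty-vector to 330 in BTG2 libraries, which is 0.601 of the control level (95% interval 0.518 to 0.698). S100A9 (ENSG00000163220.11, chr1:153357854-153361027, plus strand) had a mean of 553 and a log2 fold change of -0.72 (SE 0.11 and adjusted p = 1.72e-08 in the authors' deposited table). For S100A9 the implied level went from 690 to 417, or 0.605 of control (95% interval 0.518 to 0.706). The fold changes of the pair differed by 0.01 on the log2 scale, less than either SE. Together the pair made up 8.32% of the family's implied counts in empty-vector libraries, and their implied sum changed by -39.7% with BTG2.

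S100P, a dimer first described in placenta that binds the membrane linker ezrin and the receptor RAGE, had the most negative fold change of the family. S100P (ENSG00000163993.7, chr4:6693069-6697170, plus strand) had a mean normalized count of 238 and a log2 fold change of -1.70 (SE 0.16 and adjusted p = 4.45e-25 in the authors' deposited table). Its implied level was 365 with empty vector and 112 with BTG2, or 0.308 of control (95% interval 0.249 to 0.380). The interval of its log2 fold change, -2.01 to -1.40, did not overlap that of S100A8 (-0.95 to -0.52) or S100A9 (-0.95 to -0.50). By size of the test statistic S100P ranked 23 of 11597 genes, and its fold change had rank 2 from the bottom among the 5799 more abundant genes, those with a mean count of at least the median, 151. Of the 200 genes nearest to it in mean count, 0 had a lower fold change.

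**Figure D2:**
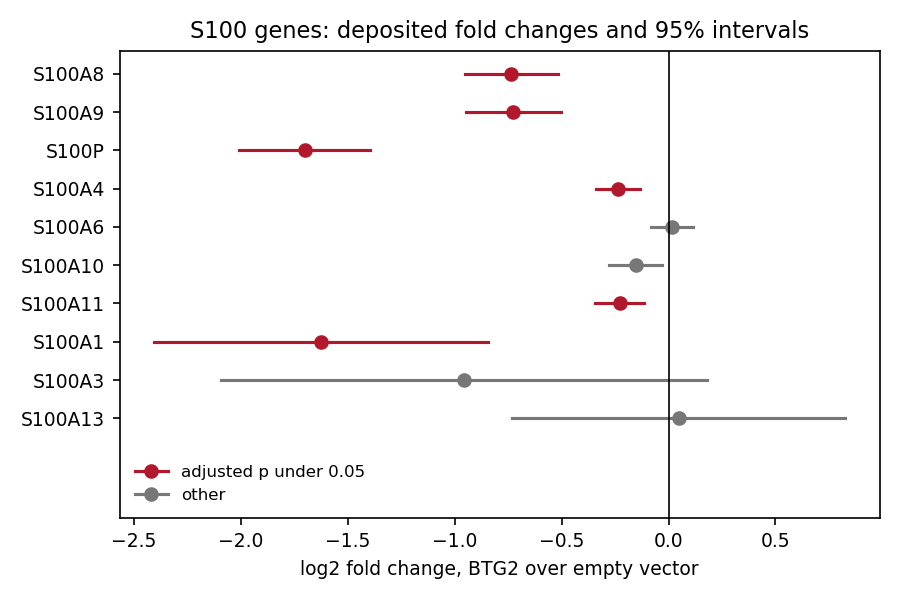
Log2 fold change of BTG2 over empty vector for each S100 gene (points) with its 95% interval from the deposited SE (lines), red where the adjusted p is under 0.05. S100P and S100A1 lie below -1.6, S100A8 and S100A9 near -0.73, and S100A4, S100A11 and S100A10 between -0.24 and -0.15.

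The abundant intracellular members had small fold changes. S100A4, S100A6, S100A10 and S100A11 held 90.5% of the family's mean counts, and their implied sum changed by -8.57%, from 13157 to 12030. S100A4, which binds non-muscle myosin and is known for its link to metastasis, had a mean of 3608 and a log2 fold change of -0.23 (SE 0.05 and adjusted p = 0.000252 in the authors' deposited table). S100A4 (ENSG00000196154.12, chr1:153543613-153550136, minus strand) thus stood at 0.850 of its control level (95% interval 0.791 to 0.912). S100A11, a partner of annexin A1, had a mean of 2354 and a log2 fold change of -0.23 (SE 0.06 and adjusted p = 0.00238 in the authors' deposited table). S100A11 (ENSG00000163191.6, chr1:152032506-152047907, minus strand) stood at 0.854 of control (95% interval 0.789 to 0.924).

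S100A10, also called p11, is the member that does not need calcium and binds annexin A2. S100A10 (ENSG00000197747.9, chr1:151982915-151994390, minus strand), in the authors' deposited table, had a mean of 2070 and a log2 fold change of -0.15 (SE 0.06), with an adjusted p of 0.123. Its 95% interval ran from -0.28 to -0.03, on the same side of 0 as those of S100A4 and S100A11. S100A6, or calcyclin, had the highest mean of the family, 4562, and a log2 fold change of 0.02 (SE 0.05 and adjusted p = 0.952 in the authors' deposited table). The interval of S100A6 (ENSG00000197956.10, chr1:153534599-153536244, minus strand), -0.08 to 0.11, did not contain the log2 fold change of S100A4. It did not overlap the interval of S100A4, -0.34 to -0.13. Both intervals rest on SEs from 2 libraries per group that may measure technical spread.

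The 3 scarce members, S100A1, S100A3 and S100A13, had wide errors. S100A1, best known as a regulator of calcium cycling in muscle, had a mean of 46.0 and a log2 fold change of -1.62 (SE 0.40 and adjusted p = 0.00124 in the authors' deposited table). Its implied level went from 69.5 to 22.5, or 0.324 of control, with a 95% interval from 0.189 to 0.556. S100A1 (ENSG00000160678.12, chr1:153627926-153632039, plus strand) overlaps S100A13 on the opposite strand over 3435 bases. Of the windows of 31 bases in the longest coding transcript of S100A1, 29.2% also occur, as the reverse complement, in transcripts of 2 other genes, among them S100A13 (16.0%). The use of strand in the counting was not given in the sources used here, so reads of S100A1 and of its antisense partners cannot be told apart.

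S100A3, a zinc-binding member of the hair cuticle, had a mean of 15.0 and a log2 fold change of -0.96 (SE 0.58 and adjusted p = 0.421 in the authors' deposited table). Its interval, -2.09 to 0.18, spans both 0 and values below that of S100P. S100A3 (ENSG00000188015.10, chr1:153547329-153549372, minus strand) lies within the annotated span of S100A4 on the same strand, an overlap of 2044 bases, but 0 of its windows of 31 bases occur in a transcript of another gene. S100A13, which helps release fibroblast growth factor from cells, had a mean of 32.6 and a log2 fold change of 0.05 (SE 0.40 and adjusted p = 0.986 in the authors' deposited table). Its interval reached from -0.73 to 0.83, so a change of the size of S100A9 was within it. S100A13 (ENSG00000189171.15, chr1:153618787-153631360, minus strand) shares 62.0% of its windows with the unlisted overlapping gene AL162258.1.

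**Figure D3:**
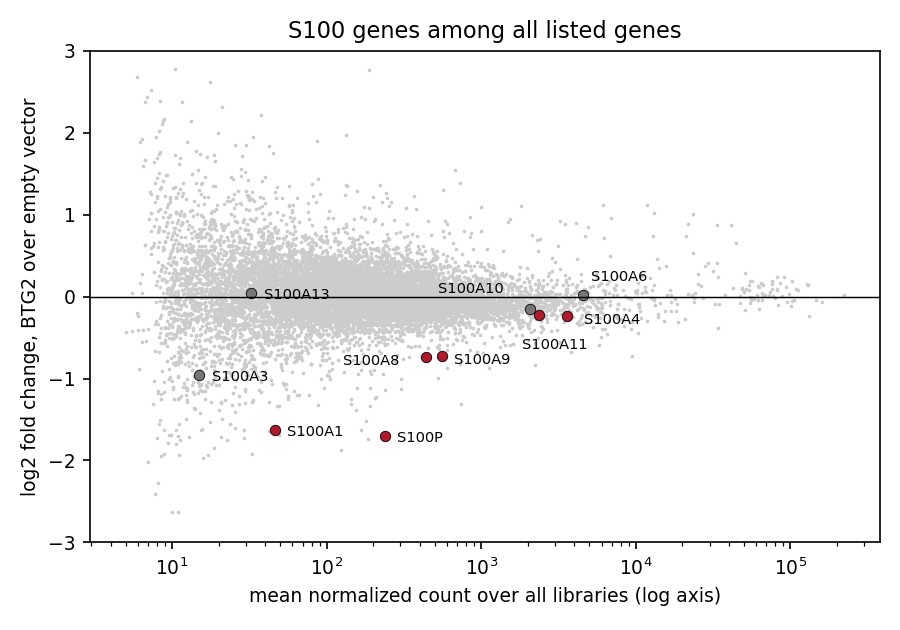
Log2 fold change of BTG2 over empty vector against the mean normalized count over all libraries (log axis) for the listed genes (grey) and the S100 genes (red where called, dark grey where not), with the vertical axis ending at -3 and 3. S100P at a mean of 238 and S100A8 and S100A9 at 439 and 553 lie at the lower edge of genes of like abundance.

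Per kilobase of its longest coding transcript, S100A6 had the highest level of the family with a mean count of 6779, followed by S100A4 with 6014, S100A11 with 3962 and S100A10 with 1722. The calgranulins came next, with S100A9 at 959 and S100A8 at 840 per kilobase, a ratio of 1.14. S100P stood at 186, S100A1 at 58.7, S100A13 at 47.6 and S100A3 at 17.6 per kilobase. In release 29 the annotated S100P transcript begins 809 bases before the RefSeq start used for its promoter, so its length is uncertain. The order was the same per kilobase of the shortest coding transcript, although S100A10 then reached 3360 beside 3962 for S100A11. No spread of these levels over libraries was available, so neighbours in the order cannot be said to differ. Along this order the log2 fold changes were 0.02, -0.23, -0.23 and -0.15 for ranks 1 to 4, from S100A6 to S100A10. They were -0.72 and -0.73 for S100A9 and S100A8, and -1.70 and -1.62 for S100P and S100A1, ranks 7 and 8. The scarcest members, S100A13 (0.05, SE 0.40) and S100A3 (-0.96, SE 0.58), departed from this fall. A relation of fold change to level was not tested.

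For S100P the SE of 0.16 stands beside a median of 0.15 over the 200 genes nearest in mean count, and for S100A8 and S100A9 the medians were 0.11 and 0.10. Among the 200 genes nearest to S100A8 0 had a lower fold change, and among those nearest to S100A9 1 had. For S100A4 and S100A11 these numbers were 20 and 33. For S100A6 the number was 136, so its fold change lay above most genes of like abundance. Calls in either direction among the 200 nearest genes rose with abundance. They numbered 3, 5 and 4 for S100A1, S100A3 and S100A13, and 21, 15 and 26 for S100P, S100A8 and S100A9. For S100A4, S100A11, S100A10 and S100A6 they numbered 75, 68, 65 and 83.

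The members are short transcripts, which the naming rule did not use. Their longest coding transcripts measured 523 to 1279 bases with a median of 680, against a median of 3344 over 10483 listed coding genes with a complete transcript. The median 3′ UTR of the members was 151 bases against 1274, and S100A8 had the shortest, 71 bases. Coding lengths in these longest transcripts ran from 273 bases in S100A6 to 444 in S100A1. S100A1 has 3 complete coding transcripts, and the 444 bases belong to the longest, of 784 bases, whereas the shortest has 522 bases in all. The 836 other coding genes with a transcript no longer than the longest member had a median log2 fold change of -0.07, with 10.5% called lower and 5.02% higher. Genes with longer transcripts numbered 9637, with a median of -0.01, 4.26% lower and 2.95% higher. The short genes were also more abundant, with a median mean count of 540 against 159, and the part of abundance in the difference was not tested.

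The members differ widely in coding sequence. Over the 45 pairs of coding sequences the identity in a global alignment ran from 35.3% to 61.8% with a median of 50.5%, the highest between S100A3 and S100A4. The lowest values, 35.3% to 43.1%, were the pairs with S100A1, whose coding part of 444 bases in its longest transcript adds gaps that count as differences. Among the other pairs the lowest was 46.2%, between S100A8 and S100A9. S100A8 and S100A9, S100P, S100A4, S100A6, S100A10 and S100A3 had 0 windows of 31 bases in a transcript of another gene. S100A11 shared 8.33% of its windows with 4 other genes. Of the 2 S100A11 pseudogenes in the annotation, 0 had a row in the table.

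The 9 members on chromosome 1 spread over 1649 kb and had 18 other listed genes among them or within 500 kb of the outermost members, from chr1:151482915 to 154132039. Of the 9 members 5 were called lower and 0 higher, with a median log2 fold change of -0.23. Of the 18 other genes 0 were called lower and 3 higher, with a median of 0.03. Among all listed genes 8.11% were called, 4.47% lower and 3.64% higher. Since the members were chosen with their values known, nothing is read from their contrast with the neighbours. The 3 were the sorting nexin SNX27 (0.58, SE 0.16), JTB (0.32, SE 0.09) and the chromatin factor GATAD2B (0.59, SE 0.18) in the authors' deposited table. S100A8 and S100A9 lie within 33.3 kb of each other, with fold changes 0.01 apart. S100A6 and S100A4 lie within 15.5 kb of each other, with fold changes of 0.02 and -0.23. Around S100P, 9 other genes were listed within 500 kb, of which 0 were called, beside 8.11% among all genes, with log2 fold changes from -0.37 to 0.46.

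**Figure D4:**
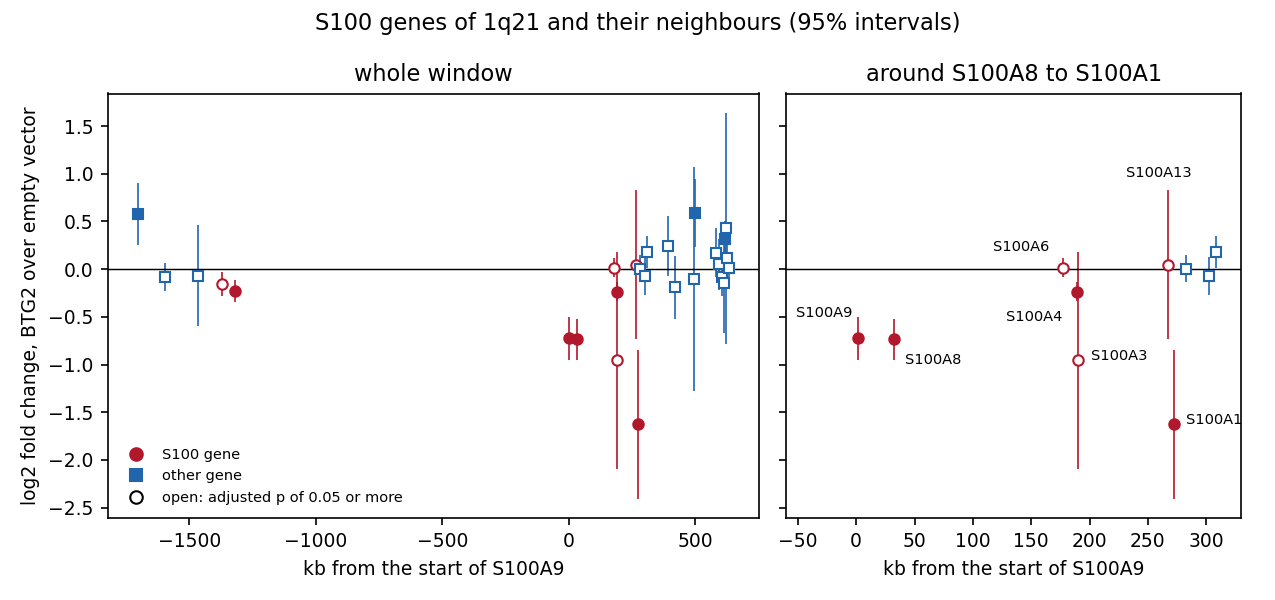
Log2 fold change with 95% interval of the 9 S100 genes (red circles) and 18 other listed genes (blue squares) of the 1q21 window against the distance in kb of the gene's midpoint from the start of S100A9, for the whole window (left) and for the stretch around S100A8 to S100A1 (right), filled where the adjusted p is under 0.05. The 5 filled S100 genes lie below 0 and the 3 filled other genes above it.

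Of 8 listed genes for receptors of extracellular S100 proteins and their adaptors 1 was lower and 0 higher, with a median of -0.05, a share near the 8.11% called among all genes. The 1 was basigin, BSG, a surface glycoprotein and receptor of S100A9, with a log2 fold change of -0.15 (SE 0.04 and adjusted p = 0.00250 in the authors' deposited table). AGER, the gene of RAGE, stood at 0.45 with an SE of 0.60 and a mean count of 13.9 in the authors' deposited table, too scarce to show a change of that size. TLR4 and CD14 had no row.

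Of 18 listed intracellular partners 2 were lower and 1 higher, with a median of -0.01, beside 8.11% called among all genes. The list's median mean count was 567, beside 151 over all listed genes. NCF1, a subunit of the phagocyte oxidase to which calprotectin binds, was lower at -0.64 (SE 0.10 and adjusted p = 1.56e-08 in the authors' deposited table). Near-identical copies of NCF1 make its count uncertain. Ezrin, EZR, the partner of S100P, was lower at -0.25 (SE 0.09 and adjusted p = 0.0479 in the authors' deposited table). That call was lost at an adjusted p limit of 0.01 and with recentring on the median of abundant genes, which left 1 lower partner, NCF1. AHNAK, a scaffold bound by S100A10 with annexin A2, was higher at 0.37 (SE 0.09 and adjusted p = 0.00179 in the authors' deposited table). The annexins of the list were not called, and ANXA1, the partner of S100A11, stood at -0.55 (SE 0.20 and adjusted p = 0.0653 in the authors' deposited table). ANXA2, the partner of S100A10, stood at -0.13 (SE 0.10 and adjusted p = 0.632 in the authors' deposited table). S100PBP, which codes for a protein that binds S100P and was the only other listed symbol to start with S100, stood at 0.01 (SE 0.23) in the authors' deposited table.

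Of 10 listed transcription factors, mostly but not only of the myeloid lineage, 4 were lower and 2 higher, with a median of -0.15. Among all genes 8.11% were called, and the list's median mean count was 708, beside 151 over all listed genes. Of the 200 genes nearest in mean count to S100A9 (553) 26 were called, and of those nearest to S100A11 (2354) 68. Some of the 10 factors act on S100A8 and S100A9. IRF8 (-0.42, SE 0.05), which drives monocyte fate, CEBPA (-0.26, SE 0.05), which drives granulocyte fate, and the progenitor factor MYB (-0.27, SE 0.06) were lower in the authors' deposited table. RUNX1 (0.42, SE 0.10) was higher in the authors' deposited table. The remaining called regulators, named after their values were seen, were CEBPB (-0.50, SE 0.14), lower, and CEBPD (0.41, SE 0.11), higher, in the authors' deposited table. SPI1, the gene of PU.1, was not called at -0.11 (SE 0.06) in the authors' deposited table.

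Of 41 listed genes for other proteins with EF-hands 3 were lower and 1 higher, with a median of -0.05, a share near the 8.11% called among all genes. The leukocyte plastin LCP1 (-0.30, SE 0.04) and the myosin light chains MYL12A (-0.33, SE 0.05) and MYL6 (-0.16, SE 0.04) were lower, and the calmodulin gene CALM2 (0.62, SE 0.18) was higher, in the authors' deposited table. The lowest fold change in this list was -0.37, above those of S100P, S100A1, S100A8 and S100A9. It was also above that of S100A3, which was not called and whose interval, -2.09 to 0.18, contains it. Since the members were chosen with their values known, nothing is read from this contrast.

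Genes for granule, cytosol, surface and other proteins of neutrophils and monocytes, the cells that make calprotectin, were called in 10 of 13 listed cases. Of the 13 genes 8 were lower and 2 higher, with a median of -0.31, beside 8.11% called among all genes. The list's median mean count was 2672.54, beside 151 over all listed genes, so 8.11% is not a share at like abundance. Of the 200 genes nearest in mean count to S100A11 (2354) 68 were called, and of those nearest to S100A4 (3608) 75. The surface protein MS4A6A (-1.01, SE 0.13), myeloperoxidase MPO (-1.14, SE 0.15), the protease CTSG (-0.49, SE 0.04) and lysozyme LYZ (-0.39, SE 0.05) had the clearest falls in the authors' deposited table. The 2 higher genes, named after their values were seen, were the proteases ELANE (0.23, SE 0.03) and PRTN3 (0.16, SE 0.05) in the authors' deposited table. MPO and LYZ also belong to the markers of the cell line, of which 2 were lower and 2, FLT3 and HOXA9, higher.

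**Figure D5:**
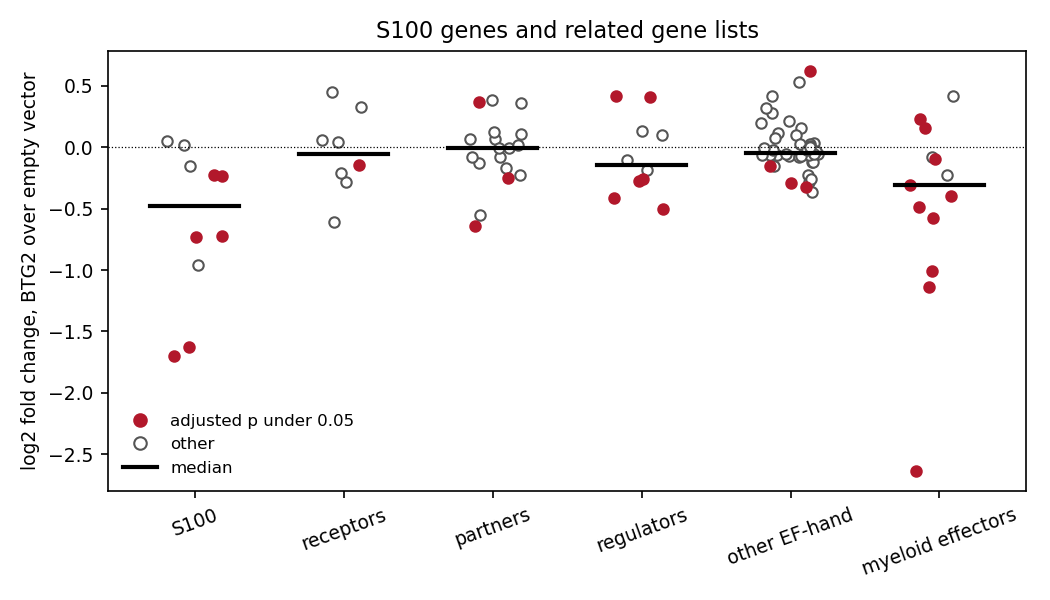
Log2 fold change of BTG2 over empty vector for each listed gene (points, filled red where the adjusted p is under 0.05) of the S100 family and of 5 related lists, with the median of each as a black line; the horizontal scatter has no meaning. The medians are -0.48 for the S100 genes, -0.31 for the myeloid effectors and between -0.15 and -0.01 for the other 4 lists.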

How the data were processed

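RNA of 2 BTG2 and 2 empty-vector libraries was compared, grouped by sample title. Per the labels' protocols, poly(A) RNA went into a directional short-read kit with paired reads of 150 bp, whereas the series title speaks of long reads; the choice between them was not given in the sources used here. Minimap2 and hg38 were used, per the submitters' processing notes. Counting, normalization, test and filters were likewise not given in the sources used here. The authors deposited, per the file headers, a mean normalized count per gene (a signal pooled over the libraries), a log2 fold change with its SE, a score that equals fold change over SE, and a p-value with an adjusted p-value. The latter is a Benjamini-Hochberg adjustment over all 11597 genes, within 1.48e-06.

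Calls in the report are the authors' own; Wald tests were recomputed from the deposited fold changes and SEs for the alternatives alone. Depth per library is unknown, and the labels do not say whether replicates were separate cultures, so p-values may measure technical spread. Members and lists were chosen with earlier results of these data known. Named are all members, BTG2, S100PBP, and per related list up to 4 called genes of largest absolute statistic, and the called neighbours on chromosome 1. Genes without a call that are named beside them (AGER, ANXA1, ANXA2, SPI1) and the list members CEBPB, CEBPD, ELANE and PRTN3 were added after their values were seen. Python 3.11.15, pandas 2.3.3, scipy 1.17.1 and Biopython 1.88 were used. Calling was tested on simulated fold changes for this comparison, drawn around their true values with the deposited SEs taken as exact. Of 11597 genes 200 changed, and 36.0% of changes of 0.5 on the log2 scale, 71.5% of changes of 1 and 90.0% of changes of 2 were recovered. Of the calls 7.69%, 2.05% and 4.26% were false. No counts or libraries were simulated, so error in the SEs was not tested and these shares do not apply to the authors' calls. Alternatives were other adjusted p limits, fold limits, recentring, and abundant genes alone.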

Additional observations from a re-analysis of the deposited data

How the results depend on the processing

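The 6 lower members and 0 higher ones remained in number at adjusted p limits of 0.01 and 0.1 and with recentring on the median of all genes or of abundant genes. With a minimum absolute log2 fold change of 1 the lower members numbered 2, S100P and S100A1, and in the test against 0.5 only S100P was left, 1 in all. S100P was called under all 7 alternatives and S100A8, S100A9, S100A4 and S100A11 under 5 of 7, while S100A1, which is scarce and so had 6 alternatives, was called under 5. Among abundant genes alone 5 members were lower, with a median of -0.23. Recentring on the median of abundant genes turned the split over all genes from 422 higher and 518 lower to 500 and 433. Over all genes, calls numbered 281 higher and 341 lower at a limit of 0.01, 62 and 58 with a minimum of 1, and 38 and 36 against 0.5. The 5 related lists together had 6 genes higher and 18 lower, 0 and 3 with a minimum of 1, and 0 and 2 against 0.5. Other genes of the 1q21 window had 3 higher calls, 1 at a limit of 0.01 and 0 both with a minimum of 1 and against 0.5. These settings are stricter by construction. No paired analysis was possible because the table has no values per library, and for the same reason no replicate could be left out. Low counts limit S100A1, S100A3 and S100A13.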

Other observations

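The TATA box was also looked up for the other listed genes, after its presence in the S100 promoters had been seen. Of 172 listed genes other than members and BTG2 with TATAAA between bases -45 and -16, 21 were lower (12.2%) and 9 higher (5.23%), with a median log2 fold change of -0.06. Of 8844 such genes without it, 383 were lower (4.33%) and 267 higher (3.02%), with a median of -0.01. The median mean counts of the groups were 159 and 164, and their transcript lengths were not compared. These are descriptions of 1 comparison, and no test was made.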
